A study of Bubalus bubalis with 6 samples.

Results

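Matricellular proteins are secreted into the extracellular matrix, where they bind collagens, growth factors and cell surface receptors rather than forming the load-bearing scaffold. The genes compared here were 10 of the 24616 genes in the deposited gene table, taken by symbol: the thrombospondins *THBS1*, *THBS2*, *THBS3*, *THBS4* and *COMP*, the tenascin *TNC*, periostin (*POSTN*), *SPARC*, its relative *SPARCL1* and osteopontin (*SPP1*). All 10 were listed, and all 10 reached the minimum of 10 counts in total over the 6 samples. Polyadenylated RNA came from buffalo (*Bubalus bubalis*) muscle stem cells (MuSCs), primary cells isolated from fetal longissimus muscle. The 3 GM samples were proliferating cells in growth medium with fetal bovine serum. The 3 DM samples were cells switched near confluence to differentiation medium with horse serum, in which myotubes form. The sample labels give no animal, no day of harvest and no statement that replicates were separate cultures, so p-values measure only the spread between these samples. The change of medium and the differentiation state cannot be told apart in this design, and in bulk RNA a change in the share of cells cannot be told apart from a change in RNA per cell.

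The thrombospondins fall into a trimeric subgroup, *THBS1* and *THBS2*, and a pentameric subgroup, *THBS3*, *THBS4* and *COMP*. *THBS1* activates latent TGF-β and signals through CD47 and CD36. Tenascin-C and periostin are made in embryonic, tendon-associated and regenerating muscle, and SPARC binds collagen and is needed for normal fibril assembly. Many of these proteins are read by cells through integrins.

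GM samples held 36657735 to 40305237 counts on genes, and DM samples 35615864 to 38177614. Expression is given as CPM, each count relative to a library size scaled by TMM, and levels of different genes are compared as RPKM, which the authors scaled by gene length. DM replicate 3 stood apart from the other DM samples: the chi-square statistic of its counts, divided by the degrees of freedom, was 40.5 and 41.4 against the other DM samples, where DM replicates 1 and 2 gave 11.7 and pairs of GM samples 6.21 to 10.6. The summed level of 11 listed muscle cell markers was 2822 to 3388 CPM in GM samples and 6270.5 to 8728 CPM in DM samples, and 7 of them were higher and 1 (*MYF5*) lower in DM samples. Markers of fibroblasts and fibro-adipogenic cells summed to 16706 to 16845 CPM in GM and 45958 to 52506 CPM in DM samples, and most of that sum was *COL1A1*. Of the 10 tested genes, 7 were higher and 1 lower, but *PI16* and *ENTPD2* among the 7 reached at most 0.459 and 1.04 CPM. *PDGFRA* and *OSR1* (log2 fold changes 0.58 and 0.52) were not called. Tenocyte markers summed to 1171 to 1314 CPM in GM and 3201 to 4398 CPM in DM samples, with 4 of 10 higher, and most of the difference was *DCN*, which is also in the fibroblast list. The tenocyte factor *SCX* was among the 4 but reached at most 0.799 CPM, and *CHODL*, also among them, at most 1.1 CPM. Smooth muscle and pericyte markers went from 1909 to 1973 CPM in GM to 1217 to 1374 CPM in DM samples, with 3 of 10 higher and 1 lower. *ACTG2*, which was not called, made up most of that sum. Of the pericyte genes in the list, *KCNJ8* and *ABCC9* were higher in DM samples by 5.60 and 4.59 on the log2 scale. *RGS5* (-2.6, at most 4 counts in a sample), *NOTCH3* (0.17) and *CSPG4* (0.44) were not called. The other lists were low: 8.15 to 8.46 CPM in GM and 6.42 to 22.9 CPM in DM samples for chondrocytes (3 of 6 higher, 2 lower), 13.6 to 15.8 and 14.2 to 24.3 CPM for endothelial cells (1 of 9 higher, 3 lower), 2.28 to 4.83 and 34.4 to 46.5 CPM for Schwann cells (1 of 3 higher, *ERBB3*), and 6.57 to 9.09 and 7.76 to 15.4 CPM for leukocytes (1 of 6 higher, 1 lower). *COL9A1*, *PMP2* and *LYZ* had no counts in any sample. The part of these other cell types in the results below was not tested.

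A gene was called when edgeR's quasi-likelihood test gave an adjusted p-value under 0.05 and an absolute log2 fold change above 1, with fold changes taken as DM over GM. Of the 10 genes, 6 were called, against 25.3% of all 15576 tested genes. *THBS3*, *THBS4*, *SPARC* and *SPARCL1* were higher in DM samples (4 genes, against 15.0% of all tested genes), and *THBS1* and *TNC* were lower (2 genes, against 10.3%). For 7 of the 10 no GM sample overlapped the DM samples in CPM, which was also true of 68.8% of all tested genes. The median log2 fold change was 0.50 for the 10 genes and 0.03 for all tested genes, and the median absolute value was 1.06 and 0.57. The number called was 4 without DM replicate 1, where *TNC* and *SPARC* fell short of the fold threshold, and 8 without DM replicate 3, where *POSTN* passed the fold threshold and *COMP* the p-value threshold.

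**Figure D1:**
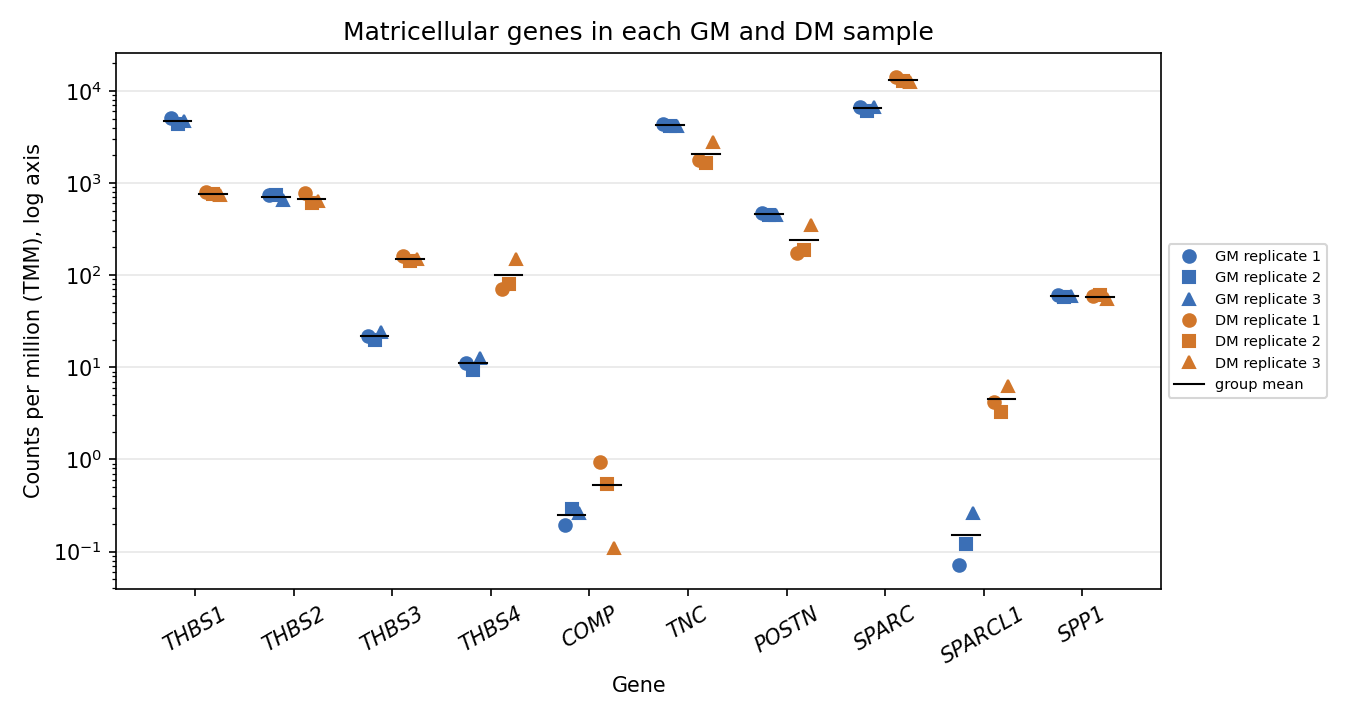
Expression of the 10 matricellular genes in each sample, in CPM on a log axis, with blue points for GM samples, orange points for DM samples, a marker shape for each replicate number and a black line at each group mean. *THBS1* and *TNC* lie lower in all 3 DM samples, *THBS3*, *THBS4*, *SPARC* and *SPARCL1* lie higher, and DM replicate 3 stands above the other DM samples for *THBS4*, *TNC*, *POSTN* and *SPARCL1*.

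*THBS1* showed the largest fall. Its level was 5044, 4374 and 4756 CPM in GM replicates 1, 2 and 3, and 805, 754 and 733 CPM in the DM replicates. All GM samples were far above all DM samples, and the spread within each group was small. The log2 fold change was -2.63 (standard error, SE, 0.075, edgeR adjusted p = 2.02e-09), a 6.19-fold lower level in DM samples. *THBS1* (ENSBTAG00000002006, chromosome 10, 35314025 to 35329297) ranked 92 among all genes by mean RPKM in GM samples and 557 in DM samples. Across the alternatives its log2 fold change stayed between -2.73 and -2.58.

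*THBS2*, the other trimeric thrombospondin and a regulator of collagen fibril assembly and of MMP2 clearance, did not pass the test. GM replicates 1, 2 and 3 held 738, 736 and 658 CPM and DM replicates 778, 614 and 639 CPM. The groups overlapped, since DM replicate 1 was the highest of the 6 samples and DM replicate 2 the lowest. Its log2 fold change was -0.07, with a 95% interval of -0.27 to 0.13 (adjusted p = 0.526 from edgeR). *THBS2* (ENSBTAG00000018810) lies on chromosome 9, 104735657 to 104760261. Measured per length, *THBS1* was 3.96 to 4.81 times *THBS2* in GM samples and 0.689 to 0.818 times in DM samples.

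The pentameric thrombospondins *THBS3* and *THBS4* both rose. *THBS3* (ENSBTAG00000000057, chromosome 3, 15470302 to 15480443), a thrombospondin of skeletal tissues, was at 22.0, 19.97 and 24.1 CPM in GM replicates and at 159.9, 143 and 151 CPM in DM replicates. Its replicates lay close together in both groups, and the log2 fold change was 2.78 (SE 0.085, edgeR adjusted p = 3e-09). *THBS4* (ENSBTAG00000012866, chromosome 10, 10945425 to 10999244), which is enriched in tendon and stabilizes muscle cell membrane adhesion, was at 11.1, 9.35 and 12.7 CPM in GM samples and at 70.5, 80.1 and 151 CPM in DM samples. Every DM sample was above every GM sample, but DM replicate 3 stood well above the other DM samples. The log2 fold change of *THBS4* was 3.19 (SE 0.27, edgeR adjusted p = 2.03e-06), and 2.78 without DM replicate 3.

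*COMP* (ENSBTAG00000004630, chromosome 7, 4354380 to 4361950), best known from cartilage and tendon, was near the limit of detection. GM replicates 1, 2 and 3 held 8, 12 and 10 counts, and DM replicates held 32, 20 and 4 counts. DM replicates 1 and 2 were above all GM samples and DM replicate 3 was below them, so the groups overlapped. The log2 fold change was 1.09 with a 95% interval of -0.38 to 2.55 (adjusted p = 0.176 from edgeR). Without DM replicate 3 it was 1.58 and passed both thresholds (adjusted p = 0.00735 from edgeR). The table's description field gives "Muscle compression" for this identifier, a name that shares only the letters of the symbol, and the counts were read by the Ensembl identifier.

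The makeup of thrombospondin transcripts differed between the groups. Of the RPKM summed over the 5 thrombospondins, *THBS1* took 81.3, 79.1 and 81.9% in the GM samples, in replicate order, and 34.1, 36.8 and 33.4% in DM replicates. *THBS2* went from 17.0 to 19.99% in GM samples to 43.8 to 49.5% in DM samples. The pentameric subgroup together took 0.893 to 1.06% in GM samples and 16.3, 18.2 and 22.8% in DM replicates 1, 2 and 3. The summed level itself was 1083 to 1222 RPKM in GM samples and 382 to 424 RPKM in DM samples. Per length, *THBS3* was 1.94 to 2.18 times *THBS4* in GM samples, 2.31 and 1.82 times in DM replicates 1 and 2, and 1.02 times in DM replicate 3.

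**Figure D2:**
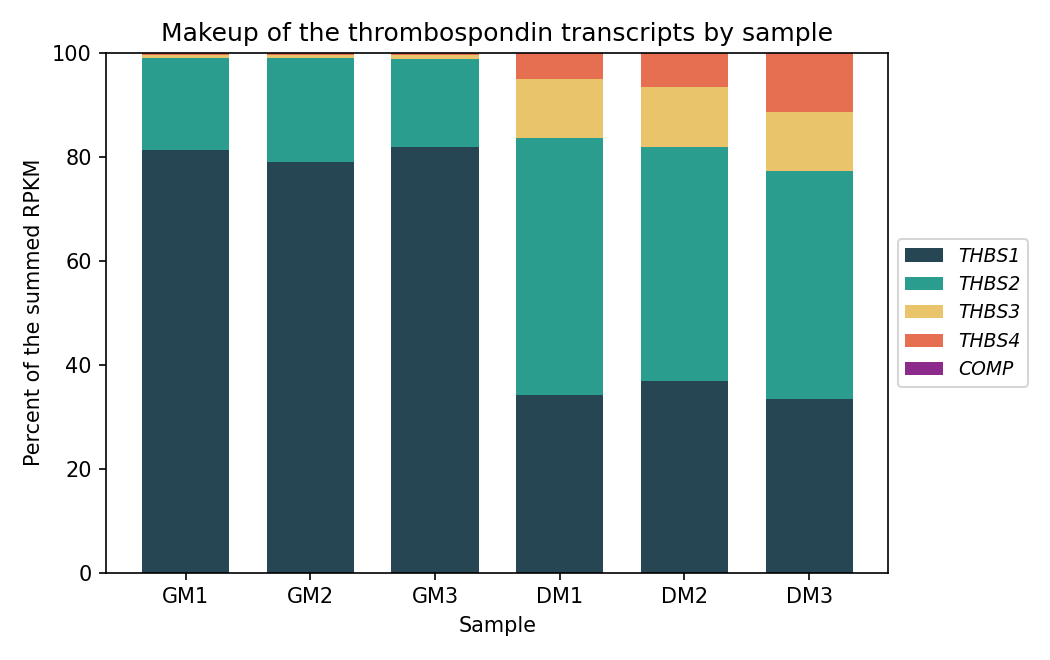
Share of each thrombospondin in the RPKM summed over *THBS1* to *THBS4* and *COMP*, in percent, with 1 bar per sample. *THBS1* makes up 79.1 to 81.9% of the bars of GM samples and 33.4 to 36.8% of those of DM samples, where *THBS3* and *THBS4* become visible. *COMP*, at 0.0921% or less in each sample, is too thin to see.

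*TNC* encodes tenascin-C, a hexameric glycoprotein of the myotendinous junction and of regenerating muscle that modulates adhesion to fibronectin. It was at 4358, 4160.1 and 4176 CPM in GM replicates 1, 2 and 3 and at 1789, 1654 and 2781 CPM in DM replicates. The groups did not overlap, and DM replicate 3 lay at 1.62 times the mean of the other DM samples. The log2 fold change was -1.03 (SE 0.16, edgeR adjusted p = 2.27e-04). Its call was lost without DM replicate 1 (-0.92) and without DM replicate 2 (-0.87), and the fold change was -1.29 without DM replicate 3. *TNC* (ENSBTAG00000000575) lies on chromosome 8, 105965498 to 106067887.

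*POSTN* (ENSBTAG00000012409, chromosome 12, 24241937 to 24276486), whose product binds collagen I and promotes collagen cross-linking, was at 472, 447 and 450.2 CPM in GM replicates 1, 2 and 3. In DM replicates it was at 175, 189 and 354 CPM. All DM samples were below all GM samples, with DM replicate 3 at 1.95 times the mean of the other DM samples. The log2 fold change was -0.93 with a 95% interval of -1.41 to -0.46 (adjusted p = 0.00316 from edgeR), so *POSTN* passed the p-value threshold and not the fold threshold. It was -1.32, past both thresholds, without DM replicate 3, and the fold threshold was also passed with library size alone (-1.03), with the replicate block (-1.01) and with limma on log2(RPKM + 0.1) (-1.11). *TNC* was 3.83 to 3.87 times *POSTN* per length in GM samples and 3.26 to 4.26 times in DM samples.

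The deposited transcript table lists a longer and a shorter *TNC* transcript, of 7557 and 6192 bases. Tenascin-C transcripts are known to differ in how many fibronectin type III repeats they include, but the tables give no exons. Reads were counted on each transcript separately, and the gene count equalled the count of the longer transcript in each sample. The count of the longer transcript exceeded that of the shorter by 14.5, 14.3 and 14.4% of the longer count in the GM samples, in replicate order, and 13.4, 14.1 and 14.3% in DM replicates. Where on the transcript these reads lie was not tested. The DM values varied more than the GM values, and no test was run on a share chosen after the values were seen. The transcripts themselves fell by 1.05 and 1.04 on the log2 scale.

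*SPARC* was the most abundant of the 10 genes in every sample. GM replicates 1, 2 and 3 held 6696, 6073 and 6622 CPM, and DM replicates 14030.3, 12926 and 12632 CPM. Every DM sample was above every GM sample. The log2 fold change was 1.03 (SE 0.068, edgeR adjusted p = 3.77e-07), a 2.04-fold rise. It stayed positive under all alternatives but fell short of the fold threshold with library size alone (0.93), with limma on RPKM (0.93), without GM replicate 2 (0.99) and without DM replicate 1 (0.99). By mean RPKM *SPARC* (ENSBTAG00000014835, chromosome 7, 64878194 to 64900828) ranked 9 among all genes in GM samples and 3 in DM samples.

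*SPARCL1* (ENSBTAG00000004094, chromosome 6, 104149824 to 104202396), also called hevin, showed the largest rise of the 10 genes from a very low level. GM replicates 1, 2 and 3 held 3, 5 and 10 counts, and DM replicates held 142, 119 and 230 counts. In CPM these were 0.0723, 0.1202 and 0.264 in GM samples and 4.20, 3.25 and 6.22 in DM samples. The groups were well apart, and the log2 fold change was 4.90 (SE 0.42, edgeR adjusted p = 2.62e-06). Because the GM counts are few, its size moved with the setting, from 3.46 with limma on log2(RPKM + 0.1) to 5.52 without GM replicate 3. Even in DM samples *SPARC* was 2483 to 4857 times *SPARCL1* per length.

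*SPP1*, osteopontin, is a phosphoprotein ligand of αv integrins and CD44 that myoblasts and macrophages secrete in injured muscle. It did not pass the test, and its level was 61.4, 58.0 and 59.3 CPM in GM replicates 1, 2 and 3 and 59.0, 61.1 and 55.5 CPM in DM replicates. The groups overlapped, with a log2 fold change of -0.02 and a 95% interval of -0.17 to 0.12 (adjusted p = 0.763 from edgeR). As a fold change the interval ran from 0.888 to 1.09 of the GM level in this fit. The log2 fold change was -0.12 with library size alone and with limma, also not called. *SPP1* (ENSBTAG00000005260) lies on chromosome 6, 38120578 to 38127577, and its pair of listed transcripts also failed the test, with log2 fold changes of -0.08 and -0.05. The *POSTN* transcripts gave -0.94 and -0.95 and were not called. In all, 13 transcripts of the 10 genes were tested and 7 were called, 4 higher and 3 lower, against 25.6% of all 16352 tested transcripts. Without DM replicate 1, 4 were called. This count largely repeats the gene result, since 7 of the genes have 1 transcript. The *TNC* pair, which shares most reads, enters the lower calls for each transcript.

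**Figure D3:**
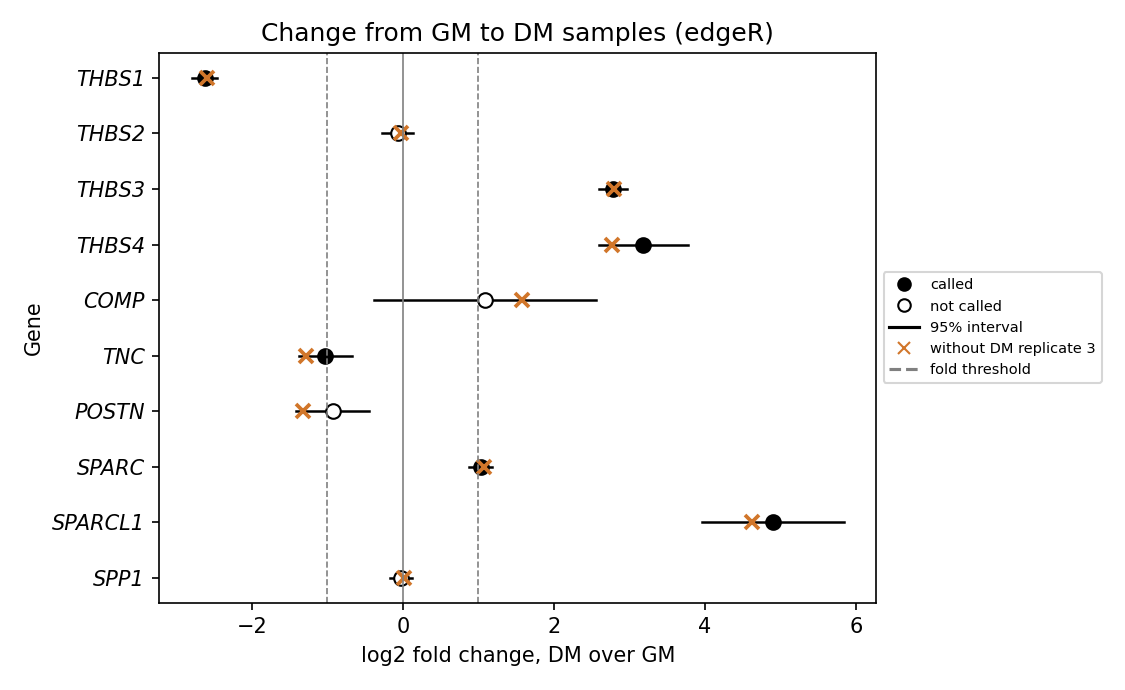
Log2 fold change of each gene, DM over GM, from edgeR, with 95% intervals as bars, filled circles for called genes and open circles for the others. Orange crosses give the value without DM replicate 3, which moves *POSTN* from -0.93 to -1.32 past the dashed fold threshold and *COMP* from 1.09 to 1.58.

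Ordered by mean RPKM, GM samples ran from *SPARC* (3128 RPKM) through *THBS1* (928), *TNC* (579), *THBS2* (209.5), *POSTN* (150.4), *SPP1* (41.8), *THBS3* (7.23) and *THBS4* (3.56) to *COMP* (0.112) and *SPARCL1* (0.0602). Each gene's 3 GM samples lay above those of the next gene, apart from *COMP* and *SPARCL1*, which overlapped. In DM samples *SPARC* (5964 RPKM) was followed by *TNC* (265), *THBS2* (186), *THBS1* (140.1), *POSTN* (73.7), *THBS3* (46.4), *SPP1* (38.4), *THBS4* (30.3), *SPARCL1* (1.69) and *COMP* (0.223). There *THBS4*, at 45.5 RPKM in DM replicate 3, overlapped both *THBS3* and *SPP1*. By RPKM *THBS1* thus lay below *TNC* and *THBS2* in DM samples and above both in GM samples. In CPM, without scaling by length, *THBS1* (mean 764) stayed above *THBS2* (677) in DM samples. Their order there therefore rests on the listed lengths, 5269 and 3510 bases. Together the 10 genes took 1.805, 1.64 and 1.73% of gene counts in the GM samples, in replicate order, and 1.69, 1.61 and 1.70% in DM replicates. *SPARC* alone went from 0.627 to 0.694% in GM samples to 1.22 to 1.33% in DM samples, and the other 9 genes from 1.01 to 1.11% to 0.344 to 0.472%. The summed share changed direction with the scale, since DM minus GM was -0.0573 percentage points by counts and 0.359 points by RPKM.

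DM replicate 3 was at 1.5 times or more the mean of the other DM samples for 4 of the 10 genes, *THBS4*, *POSTN*, *TNC* and *SPARCL1*, and at 0.145 times for *COMP*. Of the 12459 tested genes whose mean reached 1 CPM, 4.32% were at 1.5 times or more and 4.65% at 1/1.5 times or less. The mean of *COMP* was under 1 CPM, outside that set, and its value in DM replicate 3 rests on 4 counts. For *THBS1*, *THBS2*, *THBS3*, *SPARC* and *SPP1* DM replicate 3 was within 0.918 to 0.995 times the others. The next genes were chosen after their values were seen. DM replicate 3 held 20.4 CPM of the cartilage proteoglycan *ACAN*, against 2.84 and 3.55 CPM in DM replicates 1 and 2. Other chondrocyte markers did not share this rise. *MATN3* (0.351 CPM, against 1.01 and 0.574) and *COL11A2* (1.49, against 1.90 and 1.94) were lower. *COL2A1* was near level (0.514, against 0.474 and 0.437), and the rest had at most 7 counts in a DM sample. *DCN* stood at 1614 CPM, against 2734 and 2584 CPM. *COL14A1*, also in the tenocyte list, stood at 478 CPM, against 400 and 391 CPM. Whether these differences share a source was not tested.

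Receptors through which cells bind these proteins made up a list of 30 genes, and 28 of them could be tested. edgeR called 14 of the 28 (against 25.3% of all tested genes), with 8 higher and 6 lower in DM samples (15.0% and 10.3% of all tested genes), and the median log2 fold change was 0.28. The 3 largest changes were the rises of *VLDLR*, a receptor that binds thrombospondin-1 and reelin, from 40.9 ± 4.76 to 183 ± 12.1 CPM (log2 fold change 2.16), and of the integrin subunit *ITGB6* from 1.87 ± 0.137 to 7.86 ± 0.893 CPM (2.07), and the fall of the laminin-binding subunit *ITGA7* from 253 ± 13.2 to 64.8 ± 8.81 CPM (-1.96; SD, n = 3 each). *CD47*, the thrombospondin-1 receptor, stood at 75.3 ± 4.92 CPM in GM and 169 ± 9.66 CPM in DM samples and rose by 1.17 on the log2 scale (SE 0.072, edgeR adjusted p = 2.22e-07). Its direction was opposite to that of *THBS1*. The osteopontin and periostin receptor subunit *ITGAV* went from 177 to 335 CPM (0.92) and *CD44* from 419.8 to 216 CPM (-0.96), both under the fold threshold. *ITGB1*, the shared β1 subunit, went from 2049 to 1309.5 CPM (-0.65), also under it. The interval of *ITGAV* overlaps another listed gene. *CD36* and *ITGB3* were not analysed here.

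**Figure D4:**
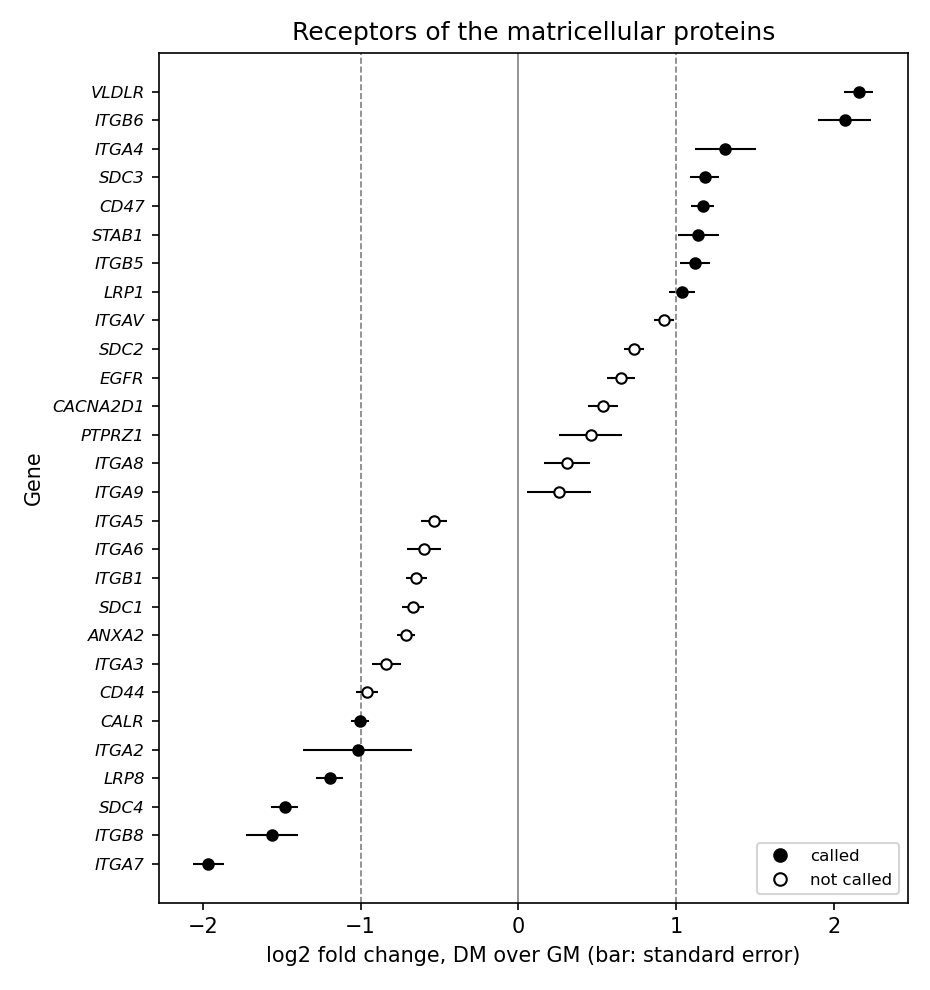
Log2 fold change, DM over GM, of the 28 tested receptor genes, with standard errors as bars, filled circles for genes called by edgeR and dashed lines at the fold threshold. Called genes run from *ITGA7* at -1.96 to *VLDLR* at 2.16, with 8 on the higher and 6 on the lower side.

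Other matricellular genes formed a list of 26, of which 22 were listed and 18 tested. edgeR called 8 (44.4%, against the same 25.3% of all tested genes), with 5 higher and 3 lower, and the median log2 fold change was 0.67. *NOV* (CCN3), a CCN family protein linked to reduced proliferation, rose from 18.3 ± 2.42 to 149 ± 18.5 CPM (log2 fold change 3.03), and the elastic fibre protein *MFAP4* from 14.0 ± 0.727 to 83.5 ± 20.9 CPM (2.57). The SPARC relative *SMOC1* fell from 19.3 ± 2.21 to 5.14 ± 1.79 CPM (-1.91), and its interval overlaps another listed gene. Among genes chosen after their values were seen, the YAP-responsive *CYR61* and *CTGF* gave log2 fold changes of -0.58 and -0.34, under the fold threshold. *IBSP*, a bone sialoprotein of the same family as *SPP1*, rose by a log2 fold change of 1.19, and the SPARC-domain gene *SMOC2* by 1.73.

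Matrix partners and proteases of these proteins formed a list of 36 genes, 34 of them tested. edgeR called 20 (58.8%, again against 25.3% of all tested genes), with 16 higher and 4 lower, and the median log2 fold change was 1.06. The largest changes were in *MMP13*, a collagenase that also cleaves matricellular proteins, *MATN3*, a cartilage matrilin that binds *COMP*, and *CTSK*, a collagen-degrading protease. *MMP13* counts were 11, 5 and 10 in GM samples, against 148, 175 and 560 in the DM samples. Its log2 fold change was 5.21, and 4.4 without DM replicate 3. *MATN3* fell from 4.16 ± 0.352 to 0.644 ± 0.333 CPM (-2.69). *CTSK* rose from 201 ± 5.35 to 1239 ± 632 CPM (2.62), with 72722 counts in DM replicate 3 against 31747 and 29701 in DM replicates 1 and 2. The following genes were chosen after their values were seen. *COL1A1* and *COL3A1*, the collagens that SPARC binds, rose by 1.54 and 2.24 on the log2 scale. Latent TGF-β, which thrombospondin-1 activates, is made from *TGFB1*, which fell by 1.47, *TGFB2*, which rose by 1.53, and *TGFB3*, which was not called (0.88). The interval of *TGFB2* overlaps another listed gene. The aggrecanase *ADAMTS1* fell by 2.28 and *ADAMTS7*, which cleaves *COMP*, rose by 1.57. Of the other ADAMTS genes in the list, *ADAMTS5* rose by 1.19, and *ADAMTS4* (-0.76) and *ADAMTS12* (0.60) were not called.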

How the data were processed

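RNA-seq of 6 samples (3 GM, 3 DM) was analysed. The authors aligned reads with HISAT2 and deposited raw counts per gene and per mRNA transcript. The deposited gene RPKM values were computed by the authors from the counts, the Length column (bases) and the summed gene counts. No result given here rests on transcript RPKM values. The methods name a buffalo genome, the tables list cattle Ensembl identifiers without a build, and the submitters' processing notes name Bowtie 0.12.2 and mouse builds, so coordinates are those of the tables. Deposited lists of the authors' fold changes and p-values, and the ncRNA table, were not used.

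The count test was the quasi-likelihood test of edgeR 4.0.16 under R 4.3.3 (TMM, at least 10 counts in total, Benjamini-Hochberg over all genes). Counts on mRNAs ranged from 39758573 to 43745577 per sample. The standard errors given with edgeR are the absolute log2 fold change divided by the square root of the F statistic. Intervals use these standard errors with the t distribution. The fits were tested on simulated counts with large changes, the same dispersion for all genes and no outlying replicate. That test did not cover genes with few counts or changes near the fold threshold. Alternatives were DESeq2 1.42.0, DESeq2 size factors, library size alone, 2 other filters, no minimum fold change, a replicate block, limma 3.58.1 on log2(RPKM + 0.1) and each sample left out. Same-numbered GM and DM samples did not deviate together (correlations of -0.02 to -0.01), so the numbers were not taken as pairs. The genes, the context lists and the marker lists were chosen with earlier results of these data known. Named from each context list were the 3 called genes with the largest change, no overlap between groups and a mean of at least 1 CPM, plus *ITGB1*, *ITGAV*, *CD44*, *CD47* and *CD36* (*CD36* was not analysed here). Other context genes and the *TNC* transcript share were named after their values were seen. Python 3.11.15, pandas 2.3.3 and matplotlib 3.10.9 made the tables and figures.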

Additional observations from a re-analysis of the deposited data

How the results depend on the processing

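Of 130 log2 fold changes of the 10 genes recomputed under the alternatives, 117 kept their direction and side of the thresholds, 6 fell short of the fold threshold and 5 newly passed both thresholds. With each sample left out, *THBS2* ranged from -0.17 to 0.011 and *SPP1* from -0.043 to 0.020, and the sign turned for *THBS2* without DM replicate 2 and for *SPP1* without DM replicate 3, neither of which was called in any setting. The number of the 10 genes called was 7 with the replicate block, where *POSTN* was added, and 4 to 8 on leaving out single samples, with 4 to 10 of their transcripts. The transcripts numbered 4 without DM replicate 1. On leaving out single samples, 8 to 10 other matricellular genes, 13 receptors each time (14 with all samples) and 19 to 21 matrix partners were called. With limma, 7, 12 and 18 were called. With no minimum fold change, which 63.0% of all tested genes passed, 7 of the 10 genes, 16 other matricellular genes, 25 receptors and 30 matrix partners passed. The share of counts held by the 10 genes, DM minus GM, was -0.0573 percentage points, 0.359 by RPKM and 0.173 without the 50 other genes of highest count, and the cause was not tested. Counts were few for *COMP* and for *SPARCL1* in GM samples. *COMP* also varied widely between DM replicates (32, 20 and 4 counts), and the source of that spread was not tested.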
